A study of Mus musculus with 8 samples.

Results

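The 43 genes described here encode proteins that copy DNA or supply its building blocks. They were chosen by gene symbol from a table of 49492 rows, as genes of origin licensing, helicase activation, DNA polymerases and primase, the sliding clamp and its loader, strand binding and lagging-strand joining, chromatin assembly and deoxynucleotide supply. All 43 were found, and all 43 were among the 16232 genes that reached a value of 1 in 2 or more samples and were tested. Expression was measured by RNA-seq in 8 samples of mouse embryonic fibroblasts (MEFs), connective tissue cells cultured from embryos, that fell into 4 groups of 2 replicates. The cells were Pontin f/f MEFs that stably expressed Flag-tagged Pontin from a lentivirus, either in the wild-type form (WT) or with a pair of arginines changed to alanine (RA), and Cre virus had deleted the endogenous Pontin in both. Pontin, encoded by Ruvbl1, is an ATPase that works in chromatin and transcription complexes. Each form was kept in normal medium (WT_CTL and RA_CTL) or in medium without glucose (WT_GS and RA_GS). Each genotype was 1 stably expressing line, so the Pontin form and the line cannot be told apart. The study compared the groups to ask how the methylated arginines of Pontin bear on the response to glucose starvation.

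Values are read counts relative to a library size, which the authors adjusted for each sample. They are in CPM units (counts scaled to a common library total). All differences are given on the scale log2(value + 1), where a difference of 1 is a doubling of value + 1. The samples held between 43205841 and 56363034 recovered reads, and the genes described here had between 340 and 14638 reads each per sample. Ruvbl1 was at 28.4 and 27.6 CPM in WT_CTL, 27.9 and 28.4 in WT_GS, 36.8 and 32.0 in RA_CTL and 45 and 42.9 in RA_GS. It was higher in RA than in WT cells by 0.29 in normal medium and by 0.62 under starvation (log2, limma adjusted p = 0.00946 and 2.94e-07), and the counts per gene do not show the exchanged arginines. Of 10 fibroblast markers, 9 were expressed and Lum was below 1 CPM in every sample. The sum of the 10 was 10010 to 10090 CPM in WT_CTL, 5313 to 5406 in WT_GS, 9918 to 10250 in RA_CTL and 7042 to 7059 in RA_GS. Summed markers of immune cells lay between 20.6 and 25.4 CPM, with Ptprc, Adgre1 and Cd3e below 1. Those of endothelial cells lay between 2.02 and 9.43, those of epithelial cells at most at 1.25 and those of muscle at most at 0.322. Among the neural markers Sox10, Rbfox3 and Gfap were below 1, and the sum of the list was between 70.0 and 80.9 CPM in normal medium and between 10.5 and 20.2 under starvation, carried by Tubb3. The Ruvbl1 level and these marker sums moved with genotype or medium, and their part in the results below was not tested.

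A cell copies its DNA once per division. Origins are licensed when the origin recognition complex, Cdc6 and Cdt1 load the ring of Mcm2 to Mcm7, and they fire when Cdc7 with Dbf4 brings Cdc45 and the GINS complex to that ring. Primase and the DNA polymerases then make the new strands, held to the template by the Pcna ring, while ribonucleotide reductase and thymidylate enzymes supply the deoxynucleotides. Most of these genes are transcribed around the entry into S phase under E2F factors, and in resting fibroblasts their transcripts are scarce. Because RNA was taken from bulk samples, fewer cells in S phase and less RNA per cell cannot be told apart.

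The RefSeq table of promoter windows, which reach from 250 bases before to 50 bases after each annotated start on GRCm38.p6, held 40 windows for 35 of the genes. Gins1, Gins2, Gins4, Gmnn, Mcm4, Pole, Prim2 and Rfc2 were not matched. The windows were searched on both strands for the letters TTTCCCGC, TTTGGCGC, TTTCGCGC and TTTGCCGC, forms of the E2F site, for CCAAT, the core bound by NF-Y, and for TTTGAA, the letters of the CHR element known from mitotic genes. The last 180 bases before the start are shown for Mcm5, Mcm6, Orc1, Cdc6, Pola1 and Gins3, which hold E2F letters there, and for Rrm2 and Tk1, which hold none in their window and had the largest responses to starvation. All read 5′ to 3′ on the strand of the gene, and capitals mark the matched letters in either orientation. They lie at chr8:75109329-75109508 (plus strand, Mcm5), chr1:128359706-128359885 (minus, Mcm6), chr4:108579274-108579453 (plus, Orc1), chr11:98907971-98908150 (plus, Cdc6), chrX:93632156-93632335 (minus, Pola1), chr8:95633379-95633558 (plus, Gins3), chr12:24708074-24708253 (plus, Rrm2) and chr11:117826015-117826194 (minus, Tk1). The starts are those of RefSeq, and some genes begin further upstream in the GENCODE M21 annotation. There Cdc6 begins at chr11:98907801, so its printed bases lie within the gene. Orc1, Gins3, Rrm2 and Tk1 begin there within their printed stretches, at 108579423, 95633453, 24708241 and 117826092.
Mcm5: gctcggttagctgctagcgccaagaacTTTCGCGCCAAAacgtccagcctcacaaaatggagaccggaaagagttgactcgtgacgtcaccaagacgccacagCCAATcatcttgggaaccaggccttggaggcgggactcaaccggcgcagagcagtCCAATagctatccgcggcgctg
Mcm6: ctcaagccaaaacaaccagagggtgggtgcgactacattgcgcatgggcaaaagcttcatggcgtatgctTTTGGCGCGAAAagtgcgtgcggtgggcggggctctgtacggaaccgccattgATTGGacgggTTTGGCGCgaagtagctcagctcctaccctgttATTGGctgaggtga
Orc1: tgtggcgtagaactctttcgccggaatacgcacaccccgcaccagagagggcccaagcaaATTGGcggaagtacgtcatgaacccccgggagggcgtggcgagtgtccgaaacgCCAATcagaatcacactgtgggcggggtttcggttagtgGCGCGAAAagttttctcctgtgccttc
Cdc6: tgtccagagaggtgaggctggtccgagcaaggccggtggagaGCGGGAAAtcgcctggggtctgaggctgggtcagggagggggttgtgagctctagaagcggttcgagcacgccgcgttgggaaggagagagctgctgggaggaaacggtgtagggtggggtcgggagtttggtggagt
Pola1: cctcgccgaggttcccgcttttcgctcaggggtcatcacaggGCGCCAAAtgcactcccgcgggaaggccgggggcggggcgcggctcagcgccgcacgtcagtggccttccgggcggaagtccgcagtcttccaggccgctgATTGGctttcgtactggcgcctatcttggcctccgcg
Gins3: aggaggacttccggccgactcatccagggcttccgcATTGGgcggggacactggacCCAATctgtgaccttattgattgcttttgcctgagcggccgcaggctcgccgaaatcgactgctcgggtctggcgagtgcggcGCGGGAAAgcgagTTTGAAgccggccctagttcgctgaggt
Rrm2: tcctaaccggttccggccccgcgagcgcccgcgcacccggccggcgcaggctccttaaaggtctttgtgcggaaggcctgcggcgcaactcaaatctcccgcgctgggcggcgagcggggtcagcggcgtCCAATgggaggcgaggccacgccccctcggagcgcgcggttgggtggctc
Tk1: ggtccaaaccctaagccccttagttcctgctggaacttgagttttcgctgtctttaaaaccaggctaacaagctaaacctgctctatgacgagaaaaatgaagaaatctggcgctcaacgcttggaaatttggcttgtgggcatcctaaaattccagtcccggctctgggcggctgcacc

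In the Mcm5 and Mcm6 windows a forward and a reverse E2F match overlap, which gives a run of capitals longer than 1 match. E2F letters were found in the windows of 13 of the 35 matched genes (37.1%), against 4.59% of the 10351 tested genes with a window and 2.6% of all 27025 genes with one. The 13 were Mcm3, Mcm5, Mcm6, Mcm7, Orc1, Cdc6, Cdt1, Gins3, Pola1, Pold1, Pole2, Rfc3 and Lig1. CCAAT stood in the windows of 20 of the 35 (57.1%, against 43% of tested genes) and TTTGAA in those of 6 (17.1%, against 14.7%). A match of letters is a description and does not show that a factor was bound.

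Glucose starvation lowered most of the 43 genes in both genotypes. In WT cells 32 of 43 fell and 4 rose, where 39.2% of all tested genes fell and 39.3% rose, and the median of the 43 was -0.33 against 0.00 for all tested genes (limma, adjusted p under 0.05 for each call). In RA cells 42 of 43 fell and 0 rose, against 33.7% and 35% of all tested genes, and the median was -0.63 against 0.01. In RA cells 0 genes were also higher at an unadjusted p under 0.05, and 0 were called higher by edgeR or DESeq2. The samples of the compared groups did not overlap for 40 genes in WT cells, 35 lower and 5 higher, where 44.1% of all tested genes were lower and 44.6% higher in this way. In RA cells they did not overlap for 42 genes, all lower, against 40.7% lower and 42.5% higher among all tested genes. A called fall to less than 1 in 2 of the normal level, a log2 difference below -1, was seen for 8 genes in each genotype, against 11.7% of all tested genes in WT cells and 4.58% in RA cells. Across the 43 genes the responses of the genotypes, which share no samples, had a Pearson correlation of 0.91 and a Spearman correlation of 0.76, and of 0.81 and 0.72 without Tk1 and Rrm2. Over all tested genes these were 0.78 and 0.77, and genes of 1 sample are not independent of each other. In the heat map of every gene in every sample, the rows of Tk1, Rrm2, Rrm1, Tyms, Gmnn, Gins1 and Mcm5 passed this limit in both genotypes, that of Pole2 in WT cells and that of Fen1 in RA cells.

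**Figure D1:**
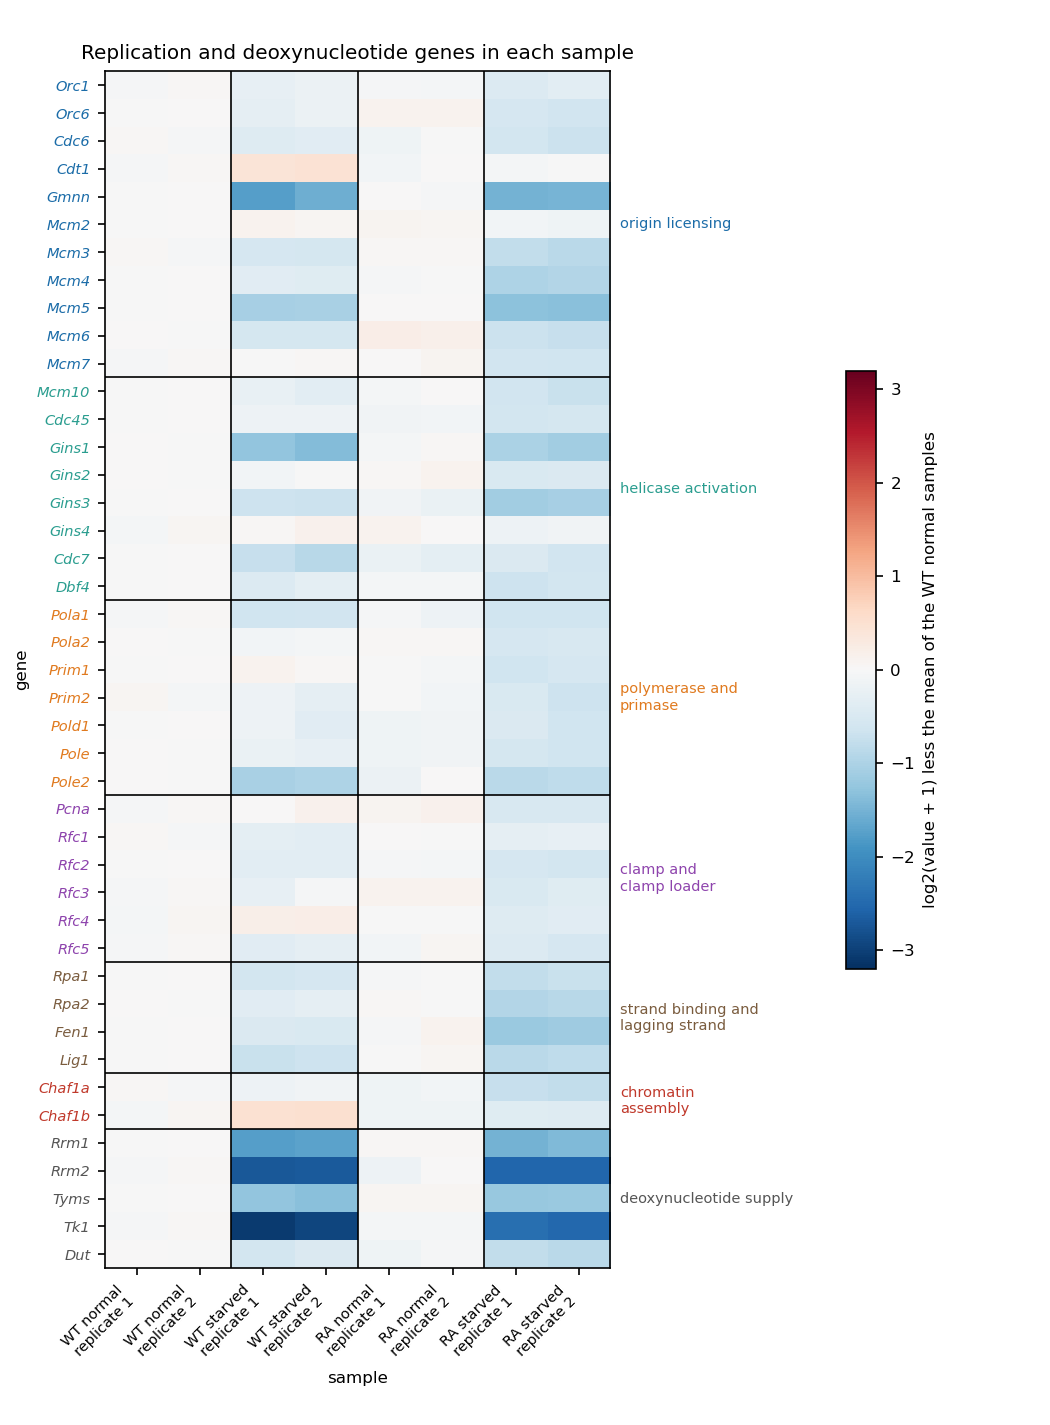
Heat map of the 43 genes (rows, coloured and grouped by role) in the 8 samples (columns), as log2(value + 1) less the mean of the 2 WT samples in normal medium; blue is lower and red is higher. The columns of RA cells in normal medium are nearly white, both starved groups are mostly blue, and Cdt1 and Chaf1b are pale red in starved WT cells. Mcm2 and Rfc4, also called higher in starved WT cells, are nearly white there.

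Between the genotypes in normal medium, 1 of 43 genes was lower and 1 was higher in RA cells, against 2.95% and 6.68% of all tested genes, with a median of -0.02 and a range from -0.26 to 0.19. With libraries scaled to total reads instead, 6.17% of all tested genes were lower and 4.19% higher, and 3 of the 43 were lower. Under starvation 32 of 43 were lower in RA than in WT cells and 5 were higher, against 32.1% and 30.8% of all tested genes, with a median of -0.28. The interaction, the response to starvation in RA cells less that in WT cells, was called lower for 29 genes and higher for 4, against 26.1% and 24.5% of all tested genes, with a median of -0.27. The interaction is built from the samples of the other comparisons, and its values are not independent of theirs. The standard error of 1 gene was between 0.037 and 0.088 in the comparisons of 2 groups and between 0.052 and 0.12 in the interaction. By their calls in the responses and the interaction, 18 genes fell in both genotypes and fell further in RA cells, and 4 fell in both and fell less in RA cells (Cdc7, Rrm1, Rrm2 and Tk1). Another 7 fell in RA cells and were not called in WT cells (Mcm7, Gins2, Gins4, Pola2, Prim1, Pcna and Rfc3). Mcm2, Rfc4 and Chaf1b rose in WT cells and fell in RA cells, and Cdt1 rose in WT cells and was not called in RA cells. The last 10 fell in both genotypes with no called difference between the responses (Orc1, Cdc6, Gmnn, Gins1, Pola1, Pold1, Pole2, Rfc1, Rfc5 and Tyms). For 6 of these 10 (Cdc6, Gmnn, Gins1, Pold1, Pole2 and Rfc5) the interaction was called in 1 to 5 alternative settings, and for Orc1, Pola1, Rfc1 and Tyms in none of those run. Among the called interactions, those of Gins3, Dbf4, Prim2, Rfc2, Rpa1, Lig1, Dut and Rrm2 were lost in 6 to 12 alternative settings.

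**Figure D2:**
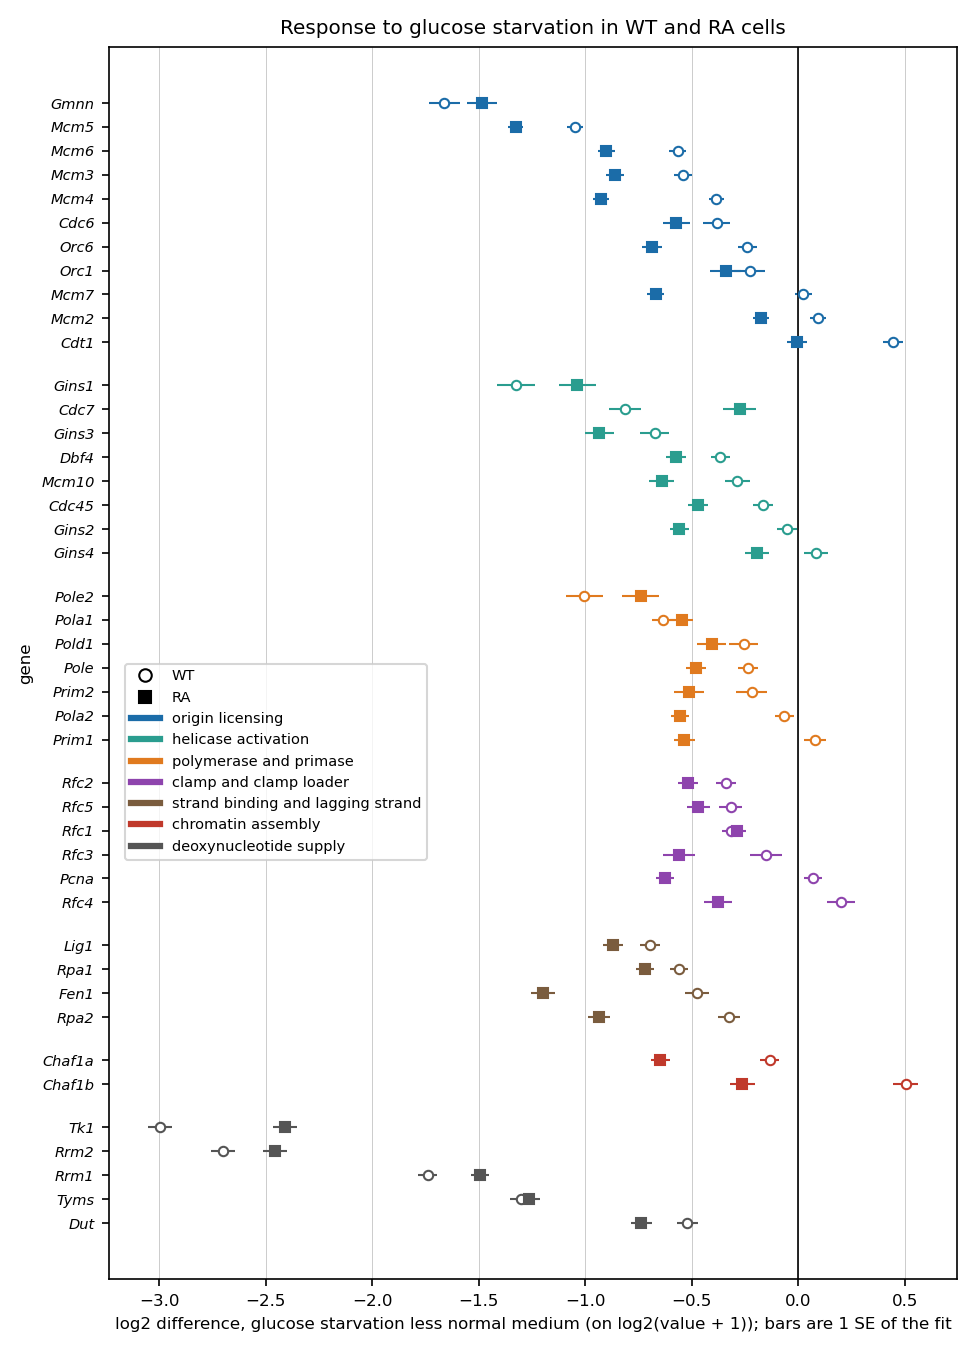
Response of each gene (rows, grouped and coloured by role) to glucose starvation, as the log2 difference from normal medium on the horizontal axis, in WT cells (open circles) and RA cells (filled squares); bars are 1 standard error of the fit. The squares lie left of the circles for 33 of the 43 genes, and right of them for 10, among them Tk1, Rrm2, Rrm1, Gmnn, Gins1, Cdc7 and Pole2.

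Of the 11 genes of origin licensing, 8 fell and 2 rose in WT cells, and 10 fell in RA cells. Of all tested genes, 39.2% fell and 39.3% rose in WT cells, and 33.7% fell in RA cells. Gmnn encodes geminin, which binds Cdt1 and blocks a second licensing in the same cycle. It stood at 37.3 and 38.1 CPM in WT_CTL, 10.5 and 12.0 in WT_GS, 37.7 and 36.7 in RA_CTL and 12.6 and 12.7 in RA_GS. The starved samples of both genotypes lay far below the others, and Gmnn fell by 1.66 ± 0.07 (SE) in WT cells and fell by 1.49 ± 0.07 in RA cells (limma, adjusted p = 8.35e-13 and 8.92e-12). The interaction of Gmnn was 0.18 ± 0.10 and was not called (limma, adjusted p = 0.159), but it was called without WT_GS replicate 2 (0.27, adjusted p = 0.0395).

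Cdt1, the partner that geminin holds back, went another way. Its values were 73.0 and 76.6 CPM in WT_CTL, 99.9 and 104 in WT_GS, 70.6 and 75.8 in RA_CTL and 71.3 and 74.5 in RA_GS. Only the starved WT samples stood apart, and they were above the other 6. Cdt1 rose by 0.44 ± 0.05 in WT cells (limma, adjusted p = 1.98e-07), differed by -0.01 ± 0.05 in RA cells (limma, adjusted p = 0.922), and had an interaction of -0.45 ± 0.07 (limma, adjusted p = 3.59e-05). Cdc6, which loads the MCM ring together with Cdt1, was at 36.0 and 33.9 CPM in WT_CTL, 26.2 and 26.9 in WT_GS, 31.9 and 34.7 in RA_CTL and 22.7 and 21.4 in RA_GS. It fell by 0.38 ± 0.06 in WT cells and by 0.57 ± 0.06 in RA cells, the starved RA samples were the lowest, and the interaction of -0.19 ± 0.09 was not called (limma, adjusted p = 0.0902). It was called under quantile normalization (-0.25, adjusted p = 0.0291) and without RA_CTL replicate 1 (-0.25, adjusted p = 0.0394). Orc1 and Orc6, subunits of the origin recognition complex, fell by 0.23 and 0.24 in WT cells and by 0.34 and 0.69 in RA cells, and the interaction was called for Orc6 (-0.45) and not for Orc1 (-0.11). The fall of Orc1 in WT cells was not called under quantile normalization (-0.12) or without 1 WT sample (WT_CTL replicate 2 or WT_GS replicate 1).

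The 6 subunits of the MCM ring, which unwinds the template, are present in the ring in equal number, and their transcripts did not respond alike. Mcm5 fell most, by 1.05 in WT cells and by 1.33 in RA cells, while the response nearest to 0 was that of Mcm7 in WT cells (0.02) and that of Mcm2 in RA cells (-0.18). Mcm3 and Mcm4 fell by 0.54 and 0.38 in WT cells and by 0.86 and 0.93 in RA cells, with interactions of -0.32 and -0.54. Mcm2 was at 156 and 156 CPM in WT_CTL, 169 and 164 in WT_GS, 165 and 163 in RA_CTL and 148 and 142 in RA_GS. Both starved WT samples were above WT_CTL and both starved RA samples were below every other sample. The rise of Mcm2 in WT cells, 0.09 ± 0.04 (limma, adjusted p = 0.0337), was lost in 8 alternative settings, among them edgeR (adjusted p = 0.212) and total-read scaling (0.02, adjusted p = 0.66). Its fall in RA cells was 0.18 ± 0.04 on the log2 scale (limma, adjusted p = 0.000538).

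Mcm7 showed the largest gap between genotypes within the ring. It was at 156 and 164 CPM in WT_CTL, 160 and 165 in WT_GS, 161 and 169 in RA_CTL and 104 and 103 in RA_GS. The first 6 samples overlapped, and the starved RA samples lay below them. The response was 0.02 ± 0.04 in WT cells (limma, adjusted p = 0.611) and -0.67 ± 0.04 in RA cells (limma, adjusted p = 2.35e-10), and the interaction was -0.69 ± 0.06 (limma, adjusted p = 5.18e-08). In GENCODE M21, 7.25% of the exon bases of Mcm7 are shared with Ap4m1 on the other strand. Mcm6 was the 1 gene of the 43 called higher in RA cells in normal medium. Its values were 143 and 139 CPM in WT_CTL, 94.5 and 95.2 in WT_GS, 162 and 159 in RA_CTL and 87.3 and 83.5 in RA_GS. The RA samples were above the WT samples in normal medium (0.19 ± 0.04, limma, adjusted p = 0.00688) and below them under starvation (-0.15 ± 0.04, limma, adjusted p = 0.00341). The first call was lost without WT_CTL replicate 2 (0.17), under quantile normalization (0.13) and without the trend of the variance (0.19), and the second without RA_GS replicate 2 (-0.12). All 6 subunits were lower in starved RA than in starved WT cells, from -0.65 for Mcm7 to -0.15 for Mcm6. All 6 had an interaction called lower, from -0.69 for Mcm7 to -0.27 for Mcm2. The shares called lower among all tested genes were 32.1% and 26.1%.

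Helicase activation was covered by 8 genes, of which 6 fell in WT cells and 8 in RA cells. The shares among all tested genes were 39.2% and 33.7%. Cdc7 is the kinase that fires origins and Dbf4 is the subunit that activates it, and their interactions had opposite signs. Cdc7 was at 27.2 and 27.3 CPM in WT_CTL, 16.0 and 14.2 in WT_GS, 23.2 and 21.9 in RA_CTL and 19.4 and 17.5 in RA_GS. The RA samples were below the WT samples in normal medium and above them under starvation. Cdc7 fell by 0.81 ± 0.08 in WT cells and by 0.28 ± 0.08 in RA cells, with an interaction of 0.54 ± 0.11 (limma, adjusted p = 0.000559). Dbf4 fell by 0.37 ± 0.05 and by 0.57 ± 0.05, with an interaction of -0.21 ± 0.07 (limma, adjusted p = 0.0149). The interaction of Cdc7 was called in every setting run at the same threshold, and that of Dbf4 was lost in 6. Cdc7 was the 1 gene called lower in RA cells in normal medium (-0.26 ± 0.08, limma, adjusted p = 0.0389). That call was lost in 5 settings, among them leaving out WT_CTL replicate 1, WT_CTL replicate 2 or RA_CTL replicate 2 (-0.27, -0.26 and -0.22). Its higher level in starved RA cells, 0.27 ± 0.08 (limma, adjusted p = 0.00492), was lost under quantile normalization (0.12, adjusted p = 0.167) and without WT_GS replicate 2 (0.19) or RA_GS replicate 1 (0.20). The fall of Cdc7 in RA cells was lost without RA_GS replicate 2 (-0.21).

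The GINS complex holds 4 subunits, which together with Cdc45 turn the MCM ring into an active helicase. Gins1 was at 18.8 and 18.1 CPM in WT_CTL, 7.12 and 6.39 in WT_GS, 17.5 and 18.8 in RA_CTL and 8.58 and 8.05 in RA_GS. It was low in all starved samples, lowest in WT cells, and fell by 1.33 ± 0.09 in WT cells and by 1.04 ± 0.09 in RA cells. Its level in starved RA cells was 0.26 ± 0.09 above that in starved WT cells (limma, adjusted p = 0.0149), a call lost under quantile normalization (0.09) and without WT_GS replicate 2 (0.20) or RA_GS replicate 1 (0.22). The interaction of Gins1, 0.29, was not called (limma, adjusted p = 0.0646), but was called in 5 settings: total-read scaling (0.35), edgeR on recovered reads (0.35) and on halved reads (0.35), limma without the trend of the variance (0.29) and without WT_GS replicate 1 (0.36). Gins3 was at 26.8 and 27.4 CPM in WT_CTL, 16.7 and 16.5 in WT_GS, 24.8 and 23.4 in RA_CTL and 11.9 and 12.3 in RA_GS. The RA samples lay below the WT samples in both media without overlap, with a difference of -0.16 ± 0.07 in normal medium, which was not called (limma, adjusted p = 0.149), and of -0.42 ± 0.07 under starvation (limma, adjusted p = 4.76e-05). The interaction of Gins3, -0.26 ± 0.10, was called (limma, adjusted p = 0.0355) and was lost in 10 settings.

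Gins4 moved little. It was at 45.4 and 48.7 CPM in WT_CTL, 48.1 and 51.6 in WT_GS, 50.9 and 47.5 in RA_CTL and 42.0 and 43.6 in RA_GS. Only the starved RA samples lay below the rest, with a response of 0.08 ± 0.06 in WT cells (limma, adjusted p = 0.191) and -0.20 ± 0.06 in RA cells (limma, adjusted p = 0.00515). Leaving out RA_CTL replicate 1 (-0.15) or RA_GS replicate 1 (-0.17) ended that call. Gins2 had -0.05 in WT and -0.56 in RA cells, but 67.3% of its exon bases are shared with Gse1 on the other strand, and the counting of strands is not given in the sources used here. In WT cells Gins2 was not called, but was called lower under total-read scaling (-0.13, adjusted p = 0.0167) and quantile normalization (-0.12, adjusted p = 0.0258). Cdc45 fell by 0.17 in WT cells and by 0.47 in RA cells, and Mcm10, which helps the helicase to open, fell by 0.29 and 0.64. Both had an interaction called lower (-0.31 and -0.36).

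All 7 polymerase and primase genes fell in RA cells and 5 fell in WT cells, against 33.7% and 39.2% of all tested genes. Polymerase alpha with primase starts each new strand, and the transcripts of its 4 subunits were close together in RA cells, from -0.56 to -0.51, and spread in WT cells, from -0.63 to 0.08. Pola1, the catalytic subunit, was at 51.6 and 54.1 CPM in WT_CTL, 33.4 and 34.0 in WT_GS, 51.8 and 47.1 in RA_CTL and 33.4 and 33.5 in RA_GS. The starved samples of the genotypes overlapped, and Pola1 fell by 0.63 ± 0.06 in WT cells and by 0.55 ± 0.06 in RA cells, with an interaction of 0.09 ± 0.08 that was not called (limma, adjusted p = 0.386). Prim1, the primase that makes the RNA primer, was at 58.3 and 58.7 CPM in WT_CTL, 63.2 and 60.4 in WT_GS, 57.7 and 55.9 in RA_CTL and 37.4 and 40.3 in RA_GS. The starved WT samples were the highest and the starved RA samples the lowest. Its response was 0.08 ± 0.05 in WT cells (limma, adjusted p = 0.169) and -0.54 ± 0.05 in RA cells (limma, adjusted p = 5.71e-08), and the interaction was -0.61 ± 0.07 (limma, adjusted p = 2.22e-06). Pola2, the second subunit of polymerase alpha, differed by -0.07 in WT cells, which was not called, and fell by 0.56 in RA cells. In WT cells Pola2 was called lower under total-read scaling (-0.14), quantile normalization (-0.13) and edgeR (-0.10). Prim2 fell by 0.22 and by 0.51, and its interaction of -0.29 was lost in 7 settings. Its fall in WT cells was lost without WT_CTL replicate 1 (-0.16, adjusted p = 0.112) or WT_GS replicate 2 (-0.16, adjusted p = 0.102).

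Pold1, the catalytic subunit of the lagging-strand polymerase delta, was at 50.6 and 51.2 CPM in WT_CTL, 45.6 and 39.5 in WT_GS, 46.2 and 46.6 in RA_CTL and 37.0 and 32.6 in RA_GS. The replicates of each starved group lay further apart than those in normal medium. It fell by 0.26 ± 0.07 in WT cells and by 0.41 ± 0.07 in RA cells, and the interaction of -0.15 ± 0.10 was not called (limma, adjusted p = 0.20). Without WT_GS replicate 2 the fall in WT cells was lost (-0.16) and the interaction was called (-0.25, adjusted p = 0.0355). Pole, the catalytic subunit of the leading-strand polymerase epsilon, fell by 0.24 and 0.48 and its accessory subunit Pole2 by 1.01 and 0.74. Their interactions had opposite signs, -0.25 ± 0.07 for Pole, which was called (limma, adjusted p = 0.00539), and 0.27 ± 0.12 for Pole2, which was not (limma, adjusted p = 0.0813). That of Pole2 was called under total-read scaling (0.33, adjusted p = 0.0301) and without RA_CTL replicate 2 (0.37, adjusted p = 0.0273).

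For the clamp and its loader, 3 of 6 genes fell and 1 rose in WT cells, and 6 fell in RA cells. Among all tested genes 39.2% fell and 39.3% rose in WT cells, and 33.7% fell in RA cells. Pcna encodes the ring that tethers polymerases to DNA. It was at 211 and 218 CPM in WT_CTL, 215 and 234 in WT_GS, 229 and 237 in RA_CTL and 151 and 150 in RA_GS. The starved RA samples were far below the other 6, which overlapped in part. The response was 0.07 ± 0.04 in WT cells (limma, adjusted p = 0.164) and -0.63 ± 0.04 in RA cells (limma, adjusted p = 9.19e-10), with an interaction of -0.69 ± 0.06 (limma, adjusted p = 7.97e-08). In WT cells Pcna was called higher without WT_GS replicate 1 (0.13) and under quantile normalization (0.09). The row of a processed copy, Pcna-ps2, had a mean of 26.9 CPM, and reads could be split between the pair. Rfc4, a loader subunit, was at 23.9 and 26.6 CPM in WT_CTL, 29.0 and 29.2 in WT_GS, 25.0 and 24.9 in RA_CTL and 18.6 and 19.3 in RA_GS. It rose by 0.20 ± 0.07 in WT cells (limma, adjusted p = 0.0112), fell by 0.38 ± 0.07 in RA cells (limma, adjusted p = 7.29e-05), and had an interaction of -0.58 ± 0.09 (limma, adjusted p = 7.16e-05). The rise was lost without WT_CTL replicate 1 (0.13) and under total-read scaling (0.13), and 12.7% of the exon bases of Rfc4 are shared with Eif4a2, a gene with a mean of 388 CPM on the other strand.

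Rfc3, another loader subunit, was at 26.7 and 27.8 CPM in WT_CTL, 22.4 and 26.6 in WT_GS, 29.7 and 29.8 in RA_CTL and 19.0 and 20.7 in RA_GS. The starved samples were the lower in each genotype. The response was -0.15 ± 0.08 in WT cells (limma, adjusted p = 0.0789) and -0.56 ± 0.08 in RA cells (limma, adjusted p = 5.12e-06), with an interaction of -0.41 ± 0.11 (limma, adjusted p = 0.0046). Without WT_GS replicate 2 the response of Rfc3 in WT cells was called (-0.27), and its difference between the starved genotypes was not (-0.17). Rfc1, the large subunit, fell by 0.32 in WT cells and by 0.29 in RA cells, with an interaction of 0.03 ± 0.06. Rfc2 and Rfc5 fell by 0.34 and 0.32 in WT cells and by 0.52 and 0.47 in RA cells. The interaction of Rfc2, -0.18, was called and was lost in 11 settings, and that of Rfc5, -0.15, was not called, except without RA_CTL replicate 1 (-0.22, adjusted p = 0.0235). Rfc5 was called lower in starved RA than in starved WT cells (-0.17), a call lost in 4 settings, among them leaving out WT_GS replicate 2 (-0.13) or RA_GS replicate 2 (-0.12).

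Each of the 4 genes of strand binding and lagging-strand joining fell in both genotypes, and each had an interaction called lower. Of all tested genes, 39.2% fell in WT and 33.7% in RA cells, and 26.1% had an interaction called lower. Fen1 encodes the nuclease that trims the flap before lagging-strand fragments are joined. It was at 71.4 and 72.7 CPM in WT_CTL, 51.8 and 51.3 in WT_GS, 69.6 and 78.5 in RA_CTL and 30.9 and 32.3 in RA_GS. Starved RA samples were lowest, starved WT samples were between them and those in normal medium, and the latter overlapped. Fen1 fell by 0.48 ± 0.05 in WT cells and by 1.20 ± 0.05 in RA cells, with an interaction of -0.72 ± 0.08 (limma, adjusted p = 8.89e-07). Since 78.8% of its exon bases are shared with Gm10143 on the other strand, whose row had a mean of 53.9 CPM, the reads of the pair cannot be told apart here. Rpa2, a subunit of the protein that coats single strands, fell by 0.33 and by 0.94, with an interaction of -0.61. Rpa1 fell by 0.56 and 0.72 and Lig1, the ligase that seals the fragments, by 0.70 and 0.87. The interactions of Rpa1 (-0.16) and Lig1 (-0.17) were lost in 12 settings each.

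Chaf1a and Chaf1b encode the large subunits of the factor that places histones on new DNA, and their responses in WT cells had opposite signs. Chaf1b was at 32.0 and 35.4 CPM in WT_CTL, 47.6 and 48.6 in WT_GS, 30.7 and 30.6 in RA_CTL and 25.7 and 25.1 in RA_GS. The starved WT samples were the highest and the starved RA samples the lowest of all. Chaf1b rose by 0.50 ± 0.06 in WT cells (limma, adjusted p = 5.28e-07) and fell by 0.26 ± 0.06 in RA cells (limma, adjusted p = 0.000774). Its interaction of -0.77 ± 0.08 (limma, adjusted p = 1.01e-06) and its difference of -0.90 ± 0.06 between starved RA and WT cells (limma, adjusted p = 8.49e-10) were the lowest of the 43 genes. Chaf1a was at 105 and 99.6 CPM in WT_CTL, 90.6 and 95.1 in WT_GS, 92.6 and 96.7 in RA_CTL and 61.0 and 59.0 in RA_GS. The starved RA samples were far below the rest. Chaf1a fell by 0.14 ± 0.04 in WT cells (limma, adjusted p = 0.0114) and by 0.65 ± 0.04 in RA cells (limma, adjusted p = 1.11e-09), with an interaction of -0.51 ± 0.06. The fall in WT cells was lost without WT_CTL replicate 1 or WT_GS replicate 1 (-0.10 each), and 52.5% of the exon bases of Chaf1a are shared with Ubxn6 on the other strand.

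**Figure D3:**
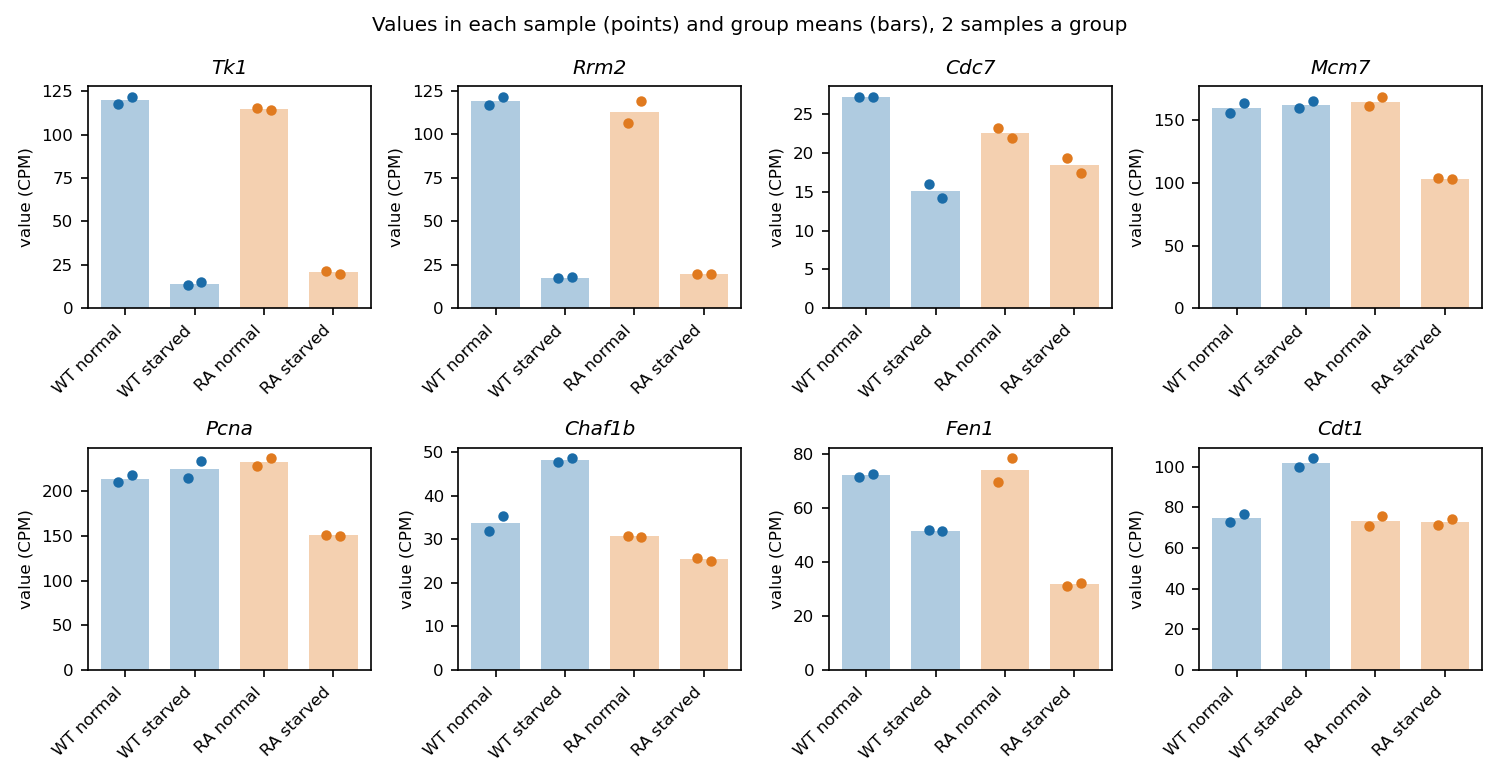
Values (CPM, vertical axis from 0) of 8 genes in each of the 4 groups on the horizontal axis; points are the 2 samples of a group and bars are their mean, blue for WT and orange for RA. Tk1 and Rrm2 collapse in both starved groups, Mcm7 and Pcna fall in starved RA cells, and Chaf1b and Cdt1 rise in starved WT cells.

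The 5 genes of deoxynucleotide supply all fell in both genotypes, and 4 of them to less than 1 in 2 of the normal level. Among all tested genes 39.2% fell in WT and 33.7% in RA cells, and 11.7% and 4.58% passed that limit. Tk1, the salvage enzyme that phosphorylates thymidine, was at 117 and 122 CPM in WT_CTL, 13.4 and 14.9 in WT_GS, 115 and 114 in RA_CTL and 21.6 and 19.97 in RA_GS. Starved samples were far below the others, and those of RA cells were above those of WT cells. Tk1 fell by 2.998 ± 0.06 in WT cells and by 2.41 ± 0.06 in RA cells (limma, adjusted p = 1.78e-17 and 1.07e-15). As ratios of value + 1, starved to normal, these falls are 0.125 and 0.188. The interaction, 0.59 ± 0.08 (limma, adjusted p = 1.53e-05), and the difference between the starved genotypes, 0.53 ± 0.06 (limma, adjusted p = 5.17e-07), were the highest of the 43 genes and were called in every setting run at that threshold.

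Rrm1 and Rrm2 encode the subunits of ribonucleotide reductase, which makes deoxynucleotides from ribonucleotides. Rrm2 was at 117 and 122 CPM in WT_CTL, 17.2 and 17.7 in WT_GS, 106 and 119 in RA_CTL and 19.6 and 19.7 in RA_GS. It fell by 2.70 ± 0.06 in WT cells, to 0.154 of the normal level, and fell by 2.46 ± 0.06 in RA cells, to 0.182. Both starved RA samples were above both starved WT samples by a small margin, 0.16 ± 0.06 (limma, adjusted p = 0.0185), a call lost in 8 settings. The interaction of 0.24 ± 0.08 (limma, adjusted p = 0.0177) was lost in 6, among them leaving out WT_CTL replicate 2 (0.21), WT_GS replicate 1 (0.22) or RA_CTL replicate 1 (0.16). Rrm1 was at 271 and 278 CPM in WT_CTL, 79.6 and 83.4 in WT_GS, 280 and 284 in RA_CTL and 95.7 and 103 in RA_GS. It fell by 1.74 ± 0.04 in WT cells and fell by 1.49 ± 0.04 in RA cells. The starved RA samples were above the starved WT samples by 0.28 ± 0.04 (limma, adjusted p = 2.05e-05), and the interaction was 0.25 ± 0.06 (limma, adjusted p = 0.0027).

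Tyms makes thymidylate from deoxyuridylate. It was at 67.4 and 68.3 CPM in WT_CTL, 27.5 and 26.2 in WT_GS, 70.7 and 71.4 in RA_CTL and 28.7 and 29.3 in RA_GS. The RA samples were above the WT samples by 0.07 in normal medium and by 0.11 under starvation, and neither difference was called (limma, adjusted p = 0.445 in normal medium and 0.0669 under starvation). The second was called under total-read scaling (0.13, adjusted p = 0.035) and by edgeR on recovered reads (0.13, adjusted p = 0.0333) and on halved reads (0.13, adjusted p = 0.0407). Tyms fell by 1.30 ± 0.05 in WT cells and by 1.26 ± 0.05 in RA cells, with an interaction of 0.04 ± 0.07. Dut, which clears deoxyuridine triphosphate, fell least of the 5, by 0.52 in WT cells and by 0.74 in RA cells, and its interaction of -0.22 was lost in 6 settings.

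For 12 of the genes, 5% or more of the exon bases are shared with another gene in GENCODE M21 on GRCm38: Fen1, Gins2, Chaf1a, Rfc2, Rfc4, Orc1, Rfc5, Pole2, Mcm7, Orc6, Cdc45 and Lig1. Their values may hold reads of the other gene. Among the 31 genes without such an overlap, 23 fell and 3 rose in WT cells and 30 fell in RA cells. The interaction was called lower for 20 and higher for 4. In the same order, the shares of all tested genes were 39.2%, 39.3%, 33.7%, 26.1% and 24.5%.

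Seen across roles, the median response in RA cells lay below that in WT cells for origin licensing (-0.69 against -0.38), helicase activation (-0.57 against -0.33), polymerases and primase (-0.54 against -0.24), the clamp and its loader (-0.49 against -0.23), strand binding and joining (-0.90 against -0.52) and chromatin assembly (-0.46 against 0.18). For deoxynucleotide supply the order was the other way, -1.49 against -1.74. In starved cells, 9 of 11 licensing genes, 6 of 8 helicase genes, 5 of 7 polymerase and primase genes, 5 of 6 clamp genes, 4 of 4 strand genes and 2 of 2 chromatin assembly genes were lower in RA than in WT cells. In these roles the genes called higher were 2 of the 8 helicase genes, Gins1 and Cdc7. Of the 5 deoxynucleotide genes, 1 was lower (Dut) and 3 were higher (Tk1, Rrm1 and Rrm2). Among all tested genes 32.1% were lower and 30.8% higher in this comparison.

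**Figure D4:**
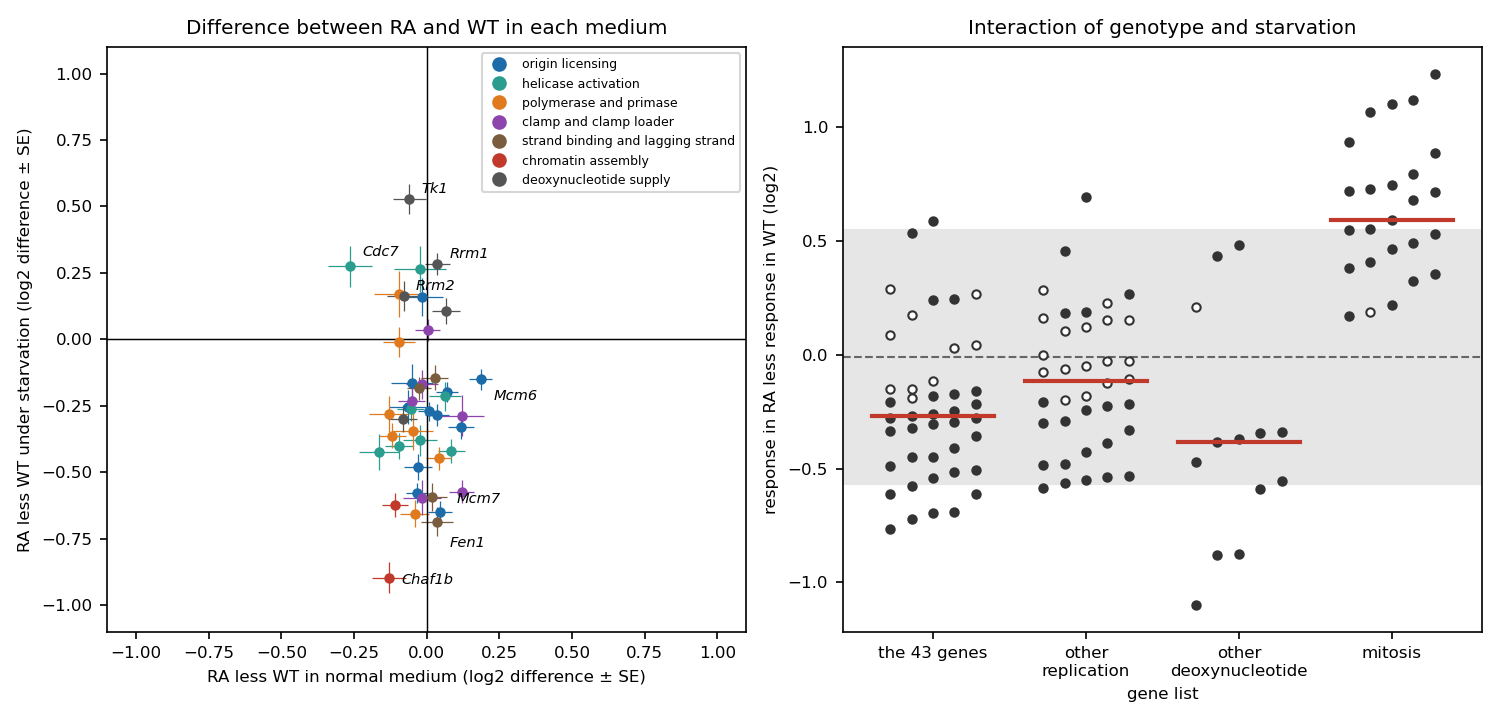
Left, difference between RA and WT cells in normal medium (horizontal axis) and under starvation (vertical axis) for each of the 43 genes, as log2 differences with 1 standard error, coloured by role; the points are narrow along the horizontal axis (-0.26 to 0.19) and wide along the vertical axis (-0.90 to 0.53). Right, interaction of genotype and starvation (log2) for the 43 genes and 3 further lists, each point a gene, filled where called and open where not, with the list median in red; the dashed line and grey band are the median of all tested genes (-0.01) and 1 SD around it (0.558).

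Of 38 further replication genes, among them other polymerase, origin and histone chaperone genes, 19 fell and 12 rose in WT cells. Among all tested genes 39.2% fell and 39.3% rose there, and 33.7% and 35% did so in RA cells. In RA cells 28 of the 38 fell and 6 rose. The lowest responses were those of Uhrf1, which guides DNA methylation on new strands (-1.67 in WT and -1.40 in RA cells), and Clspn, the checkpoint adaptor claspin (-1.60 and -1.65). The highest in WT cells were those of Recql4 (1.70), a helicase of replication initiation, and Pole4 (0.88), a small subunit of polymerase epsilon, and the highest in RA cells those of Recql4 (1.64) and Orc4 (0.55). The interaction had a median of -0.12. It was called lower for 16 of the 38 and higher for 5, against 26.1% and 24.5% of all tested genes. Its extremes were Pole4 (-0.58) and Atad5 (-0.56), an unloader of Pcna, at the low end, and Dscc1 (0.70), a subunit of an alternative clamp loader, and Rnaseh2b (0.45) at the high end.

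Among 13 further genes of deoxynucleotide and folate metabolism, 3 fell and 9 rose in WT cells, where 39.2% and 39.3% of all tested genes did. In RA cells 8 of the 13 fell and 4 rose, where 33.7% and 35% of all tested genes did. Samhd1, which breaks down deoxynucleotides, and Dck, a salvage kinase, were lowest in both genotypes (-1.41 and -0.68 in WT, -0.93 and -1.02 in RA cells). Shmt1, a source of one-carbon units, was highest in WT cells (1.33), and Tk2, the mitochondrial thymidine kinase, and Shmt1 were highest in RA cells (0.91 and 0.44). The interaction had a median of -0.39. It was called lower for 10 of the 13 and higher for 2, against 26.1% and 24.5% of all tested genes. Shmt1 (-0.88) was at the low end and Samhd1 (0.48) and Dguok (0.43), the mitochondrial deoxyguanosine kinase, were highest.

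A list of 25 mitosis genes gives the neighbouring phase of the cell cycle. All 25 fell in both genotypes, with medians of -2.87 in WT and -2.34 in RA cells, where the 43 genes had -0.33 and -0.63. Of all tested genes, 39.2% fell in WT and 33.7% in RA cells. In starved cells 24 of the 25 were higher in RA than in WT cells and none had a negative difference. The interaction was called higher for 24, with a median of 0.59. The shares called higher among all tested genes were 30.8% and 24.5%. Of the 43 replication genes, 5 and 4 were higher in these comparisons and 32 and 29 lower. TTTGAA was found in the windows of 66.7% of 21 matched mitosis genes and E2F letters in 4.76% of them, against 17.1% and 37.1% of the 35 genes matched here.

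Changes of the 43 genes were also laid beside the promoter letters. The 13 genes with E2F letters had a median response of -0.54 in WT and -0.67 in RA cells, and the 22 without had -0.32 and -0.63. The interaction had a median of -0.26 with these letters and -0.29 without, and was called lower for 8 of 13 and 15 of 22. That call was made for 26.1% of all tested genes. The genes with an interaction called higher, Tk1, Rrm1, Rrm2 and Cdc7, had no E2F letters in their windows, like 22 of the 35 matched genes. Tk1, with the deepest fall in WT cells, held none of the letters searched in its window, and Rrm2 held CCAAT alone, as its printed sequence shows. These groups of genes were not compared by a test.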

How the data were processed

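Total RNA of the 8 samples was made into polyA libraries and sequenced as read pairs. Per the submitters' processing notes and the study's methods, reads were mapped with TopHat2 (2.0.9) to mm9, and bedtools and edgeR were used. The counter, the annotation and the handling of strand are not given in the sources used here. The deposited table lists 49492 gene symbols, and the authors' values are a signal, the reads of a gene in CPM units of an adjusted library size. Every nonzero value was a whole number of reads (100%, within 0.1 read), so reads were recovered. Of the recovered counts from 1 to 9, 78.2% to 80.5% were even, as arises if each mate was counted. The column words minus and plus were taken to mean normal medium and starvation, after the study's own marking.

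The 43 genes, the further gene lists and the tests were chosen with earlier results of these data known. Values were tested as log2(value + 1) with limma (3.58.1, R 4.3.3), with 1 mean per group over all 8 samples and a mean-variance trend, 2-sided, with Benjamini-Hochberg adjustment over 16232 genes. Calls were made at an adjusted p-value under 0.05. For each gene all 4 groups shared 1 estimate of spread. The scatter of recovered reads between replicates, as chi-square per degree of freedom, was 3.48 in WT_CTL and 6.11 in WT_GS. It was 6.60 in RA_CTL and 16.7 in RA_GS, and the fit does not allow for this difference. The labels do not say whether replicates came from separate cultures, so p-values measure only the spread between these samples. Counting intervals were not used, since copies made by PCR are not marked. Genes given with every sample were 9 chosen by their roles and the 3 highest and 3 lowest in each comparison, and from the further lists the 2 highest and 2 lowest in each response and in the interaction, of which 1 item is not reported here. Alternatives were another pseudocount, no filter, other scalings, no trend, only the groups compared, a replicate block, a 2-fold limit, leaving out each sample, and edgeR (4.0.16) and DESeq2 (1.42.0) on recovered reads. The test was tried on simulated data.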

Additional observations from a re-analysis of the deposited data

Results flagged for a closer look

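The response to glucose starvation differed between RA and WT cells, by limma's test of the interaction (adjusted p under 0.05), for 33 of the 43 genes and for 10 of the named genes from the further lists. Each value is the response in RA cells less that in WT cells on the log2 scale, over 2 samples a group. A lower value was found for Chaf1b -0.77, Fen1 -0.72, Mcm7 -0.69, Pcna -0.69, Prim1 -0.61, Rpa2 -0.61, Rfc4 -0.58, Mcm4 -0.54, Chaf1a -0.51, Gins2 -0.51, Pola2 -0.49, Cdt1 -0.45, Orc6 -0.45, Rfc3 -0.41, Mcm10 -0.36, Mcm6 -0.34, Mcm3 -0.32, Cdc45 -0.31, Prim2 -0.29, Gins4 -0.28, Mcm5 -0.28, Mcm2 -0.27, Gins3 -0.26, Pole -0.25, Dut -0.22, Dbf4 -0.21, Rfc2 -0.18, Lig1 -0.17 and Rpa1 -0.16. A higher value was found for Rrm2 0.24, Rrm1 0.25, Cdc7 0.54 and Tk1 0.59. Of the further genes, the value was lower for Shmt1 -0.88, Pole4 -0.58, Atad5 -0.56 and Dck -0.34, and higher for Orc4 0.19, Uhrf1 0.27, Dguok 0.43, Rnaseh2b 0.45, Samhd1 0.48 and Dscc1 0.70. The share of all tested genes with such a call was 26.1% lower and 24.5% higher. The explanation of these differences was not tested. A check for single outlying samples needs at least 4 samples a group and was not made.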

How the results depend on the processing

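Over the alternatives other than the 2-fold limit, 31 to 35 of the 43 genes fell in WT cells and 42 in RA cells, or 30 to 32 and 41 to 42 with 1 sample left out. The interaction was called lower for 22 to 29 and higher for 3 to 6, or for 24 to 28 and 3 to 5 with 1 sample left out. With a 2-fold limit as well, 8 genes fell in WT and 8 in RA cells and 0 were called in each other comparison and direction. Genes called higher in starved WT cells numbered 2 under total-read scaling and 2 to 4 with 1 sample left out (2 without WT_CTL replicate 1). Those higher in starved RA than WT cells numbered 2 under quantile normalization and 2 to 5 with 1 sample left out (2 without RA_GS replicate 1). In normal medium, genes lower in RA cells numbered 0 with no filter, 3 under total-read scaling, 0 without the trend and 0 to 1 with 1 sample left out (0 without WT_CTL replicate 1, WT_CTL replicate 2 or RA_CTL replicate 2). Genes higher there numbered 0 under quantile normalization, 0 without the trend and 0 to 1 with 1 sample left out (0 without WT_CTL replicate 2). Over the alternatives other than the 2-fold limit and the left-out samples, genes higher in starved WT cells numbered 2 to 5. Those higher in starved RA than WT cells numbered 2 to 7, and those lower 31 to 33. The causes of these moves were not tested. Scaling moved the median of all genes by less than 0.1.

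Same-numbered samples of different groups had deviations that correlated by 0.0659 on average (-0.00764 to 0.157), so the numbers were not taken to pair them. The fit with a replicate block called 2 genes higher in RA cells in normal medium, Pcna (adjusted p = 0.0363) besides Mcm6, and Rfc3 lower in starved WT cells (adjusted p = 0.0448), 33 in all, and left the other counts as they were.

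Among the results followed through the alternatives, signs turned only where neither value was called. For the difference between the genotypes in normal medium, only a part of the 43 genes was followed in this way. Turns of sign among the remaining genes of that comparison were not looked for. In WT cells the response of Mcm7 was -0.0496 under total-read scaling and -0.0139 and -0.014 with edgeR on recovered and on halved reads, and ran from -0.0147 to 0.0617 with 1 sample left out. That of Pcna was -0.0068 under total-read scaling. The response of Cdt1 in RA cells ran from -0.0561 to 0.0446 with 1 sample left out. Between the starved genotypes, Gmnn differed by -0.0109 under quantile normalization, and Pola1 by 0.0131 under total-read scaling, 0.0103 with edgeR and 0.0102 with edgeR on halved reads, and from -0.0228 to 0.0031 with 1 sample left out. The interaction of Rfc1 ran from -0.0045 to 0.0668 with 1 sample left out, and that of Tyms was -0.0057 under quantile normalization. Leaving out genes that share exon bases was chosen after the data were seen. With 2 samples a group, the smallest difference called among the 43 genes was 0.09, that of Mcm2 in WT cells.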
